A study of Mus musculus with 20 samples.

Results

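The cytoplasmic ribosomal protein genes encode the proteins of the 2 subunits of the cytosolic ribosome, the particle that reads mRNA and joins amino acids into protein. They were taken by symbol from a table of 24062 genes: Rpl or Rps with a number and at most 1 closing a, l or x, together with Rplp0, Rplp1, Rplp2, Rpsa and Rps3a1. The rule used no measured value and gave 82 genes, 49 of the large and 33 of the small subunit. RNA was sequenced from the microglia of single, whole mouse brains, with 6 mThy1-Asyn and 4 wild-type mice at 7 months of age and 5 of each at 10 months. All mice were male and of the B6D2F1/J background. The mThy1-Asyn mice (genotype HEM) carry full-length human wild-type α-synuclein on the X chromosome, and the wild-type mice were their littermates. The transgene is driven by the murine Thy-1 promoter, which is best known for activity in neurons. The study's methods describe selection with CD11b beads and the sample labels name IBA1, both of which mark microglia and other macrophages. All mice of an age were processed together, so that age and processing cannot be told apart and levels are compared only within an age.

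A ribosome needs its proteins in nearly equal numbers, and cells keep their mRNAs at related levels. Many of these mRNAs begin with a C followed by a run of pyrimidines, the 5′ terminal oligopyrimidine (TOP) motif, which the mTOR kinase pathway uses to control their translation and stability through La-related proteins. Microglia, the resident macrophages of the brain, change their protein synthesis when they become activated.

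Reads counted on genes numbered 33404096 to 77806399 per mouse. The values are these counts divided by a size factor per mouse, called normalized counts. The 10 microglia markers summed to between 1602414 and 2158630 normalized counts in every mouse, and none of them was at 0.

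Of the 82 genes, 74 had a mean of at least 1000 normalized counts over the 20 mice and are called abundant here. Per kilobase of transcript, the highest mean levels were those of Rpl23a, a protein at the exit of the peptide tunnel (84581 normalized counts per kb), Rpl10, which joins the large subunit late in its assembly (73380), and Rps4x, the X-linked small subunit gene (73174). Lengths are those of 1 annotated transcript per gene, some of them long, such as 5179 bases for Rps15a and 1613 for Rps24. The ranking depends on the transcript taken. At the other end, Rpl26 and Rpl10l were at 0 in every mouse and could not be tested. Rpl3l, a copy of Rpl3 known from heart and skeletal muscle, had 15.3 normalized counts per kb. Rpl30, Rpl34 and Rps27, all core ribosomal proteins, were also near 0, with no mouse above 53.5 normalized counts. How reads that match several places were counted is not given in the sources used here, and ribosomal protein genes have many processed pseudogenes, so a low value in the table need not be a low level of the mRNA.

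The start of the gene was examined because the genes moved together. RefSeq promoters (GRCm38.p6, the assembly also called mm10) were at hand for 61 of the 82 genes, as 73 entries. A run of at least 8 C or T that opened with C lay between 30 bases before and 50 bases after the annotated start in 69.9% of these entries, against 23.1% of all 32851 entries, searched on the strand of the gene. In the whole promoter, from 250 bases before to 50 after the start and on either strand, CCGGAA was found in 47.9% against 14.9%, TATAAA in 8.22% against 13.6%, and AAGATGGCG in 6.85% against 1.40%. The windows of 30 bases shown next are a selection from the genes with such a run that the results name, 5 of the small and 6 of the large subunit. They are written 5′ to 3′ on the strand of the gene, with the first run of C and T in capitals.

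Rps12, chr10:23787178-23787207, minus strand: cgccggCCTTTTCCCCTgccgccgccgact
Rps21, chr2:180257399-180257428, plus strand: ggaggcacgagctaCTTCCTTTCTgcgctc
Rps23, chr13:90923142-90923171, plus strand: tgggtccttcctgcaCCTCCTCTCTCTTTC
Rps6, chr4:86857345-86857374, minus strand: gtcgggCCTCTTTTTCgtgacgcctcccag
Rps27l, chr9:66946058-66946087, plus strand: cctccaCTCCTCTCCactcctccccgccgc
Rpl5, chr5:107900502-107900531, plus strand: cagccaCTCTTTCTCacgtcgcttgcgtgc
Rpl6, chr5:121204521-121204550, plus strand: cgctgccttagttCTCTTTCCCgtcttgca
Rpl11, chr4:136053356-136053385, minus strand: ggaagtCTCCCTCTCTCTTCCTgttctcca
Rpl12, chr2:32961732-32961761, plus strand: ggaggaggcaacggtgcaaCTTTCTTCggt
Rpl13a, chr7:45128720-45128749, minus strand: acaagaCCTCCTCCTTTCCCaggcggctgc
Rplp2, chr7:141447641-141447670, plus strand: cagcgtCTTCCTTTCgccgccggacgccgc

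These are matches of letters in a window around an annotated start and were not tied to a measured start in these mice. Rpsa had an entry without such a run, and Rpl29, Rpl21, Rpl17 and Rpl3 had no entry.

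At 7 months, ribosomal protein genes of both subunits were lower in mThy1-Asyn microglia. They took 3.52% to 3.95% of all normalized counts in the 6 mThy1-Asyn mice (3.77% ± 0.142, SD, n = 6) and 4.76% to 5.55% in the 4 wild-type mice (5.19% ± 0.332, SD, n = 4), with no overlap. Of the 80 genes tested, 76 were lower and 4 higher, and 67 fell and 1 rose past an adjusted p of 0.05 (limma's moderated test, adjusted over 13887 genes). Over all genes tested, 2.7% were called lower and 2.23% higher. The median log2 fold change of the 80 genes was -0.48, or a level lower by a median of -28.4%, beside 0.00 for all tested genes.

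**Figure D1:**
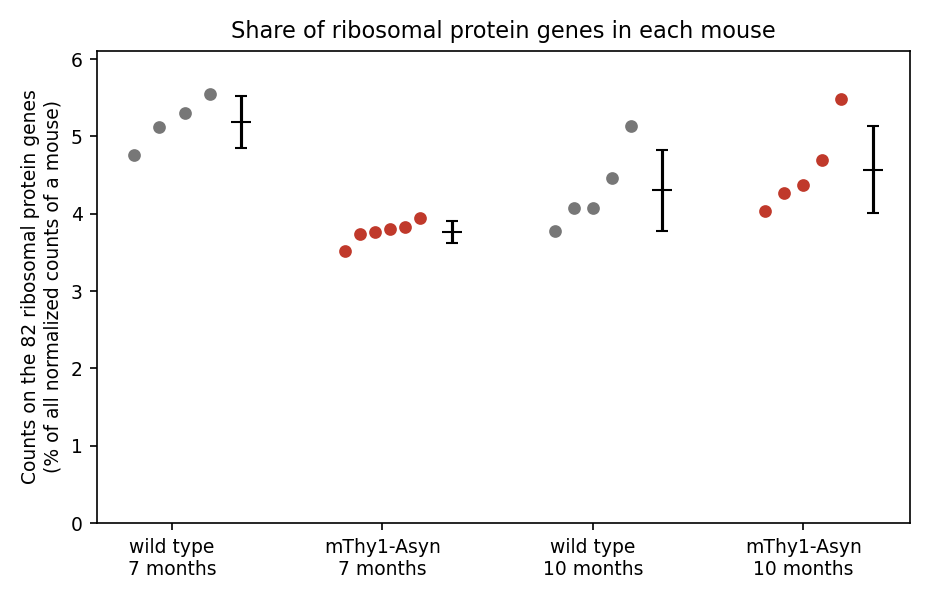
Share of the 82 ribosomal protein genes in all normalized counts of a mouse, in percent. Each point is 1 mouse and the bars are the mean and SD of the group. At 7 months the 6 mThy1-Asyn mice lie between 3.52% and 3.95%, all below the 4 wild-type mice, and at 10 months the genotypes overlap.

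The groups did not overlap in 64 of the 80 genes, with every mThy1-Asyn mouse below every wild-type mouse, against 3.97% of all tested genes in that direction. The size of the difference varied little. Among the 74 abundant genes the quartiles of the log2 fold change were -0.52 and -0.44, and among the members of all levels the quartiles were -0.52 and -0.43, where those of all tested genes were -0.19 and 0.15. At 7 months 75 members had an unadjusted p under 0.05, as did 2962 of all 13887 tested genes.

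The small subunit genes fell as the large subunit genes did. Of 47 large subunit genes tested, 40 fell, 1 rose and the median log2 fold change was -0.47. Of 33 small subunit genes, 27 fell, none rose and the median was -0.50. The ratio of large to small subunit counts was 1.40 to 1.46 in mThy1-Asyn mice and 1.38 to 1.42 in wild type, so that the mice overlapped. The difference between the subunits was not tested.

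Among small subunit genes, Rps12 (chr10:23785183-23787275, minus strand) had 25459, 25513, 26947, 27950, 29956 and 30343 normalized counts in mThy1-Asyn mice. In wild type it had 40575, 43023, 45401 and 36464. The groups did not overlap, with a log2 fold change of -0.58 ± 0.080 (SE, adjusted p 0.0018).

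Rps21 had the most negative log2 fold change of the abundant genes, -0.61 ± 0.087 (SE, adjusted p 0.0018), with 12761 to 15058 normalized counts in mThy1-Asyn mice and 19240 to 25712 in wild type. Rps23, a protein of the decoding centre, had a log2 fold change of -0.54. Rps3, at the mRNA entry, had -0.50. Rps27a, which is made fused to ubiquitin, had -0.52. Rps6, the substrate of the S6 kinases below mTOR, had -0.51 with an adjusted p of 0.0037. In each of these genes the genotypes did not overlap.

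In the large subunit the same picture held for genes of different sites. Rpl17 and Rpl39, both at the tunnel through which the new peptide leaves, had log2 fold changes of -0.59 and -0.54. Rpl24, which bridges to the small subunit, had -0.46. Rpl12, at the base of the stalk that recruits elongation factors, had -0.50. Rpl6, Rpl32 and Rpl13a had -0.44, -0.50 and -0.56. Rpl5 and Rpl11, which also bind the MDM2 ubiquitin ligase outside the ribosome, had -0.43 and -0.41. Rpl23a, Rpl10 and Rps4x, the highest per length of the transcripts taken, had -0.49, -0.43 and -0.45. All of these passed the cutoff, with the genotypes apart.

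Of the 3 proteins of the stalk itself, 2 passed the cutoff. Rplp1, in which the genotypes overlapped, had a log2 fold change of -0.56 ± 0.109 (SE, adjusted p 0.0078) and Rplp2 -0.52 ± 0.094 (SE, adjusted p 0.0049). Rplp0, which anchors them, had a fold change of the same size, -0.56, but an SE of 0.199 and an adjusted p of 0.142. Its normalized counts ran from 14664 to 28165 in mThy1-Asyn mice and from 24818 to 37736 in wild type, so that the genotypes overlapped. DESeq2 on the recovered reads gave Rplp0 an adjusted p of 0.0162, the lowest of the alternatives. Leaving out single mice gave 0.112 to 0.303 in limma's test.

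**Figure D2:**
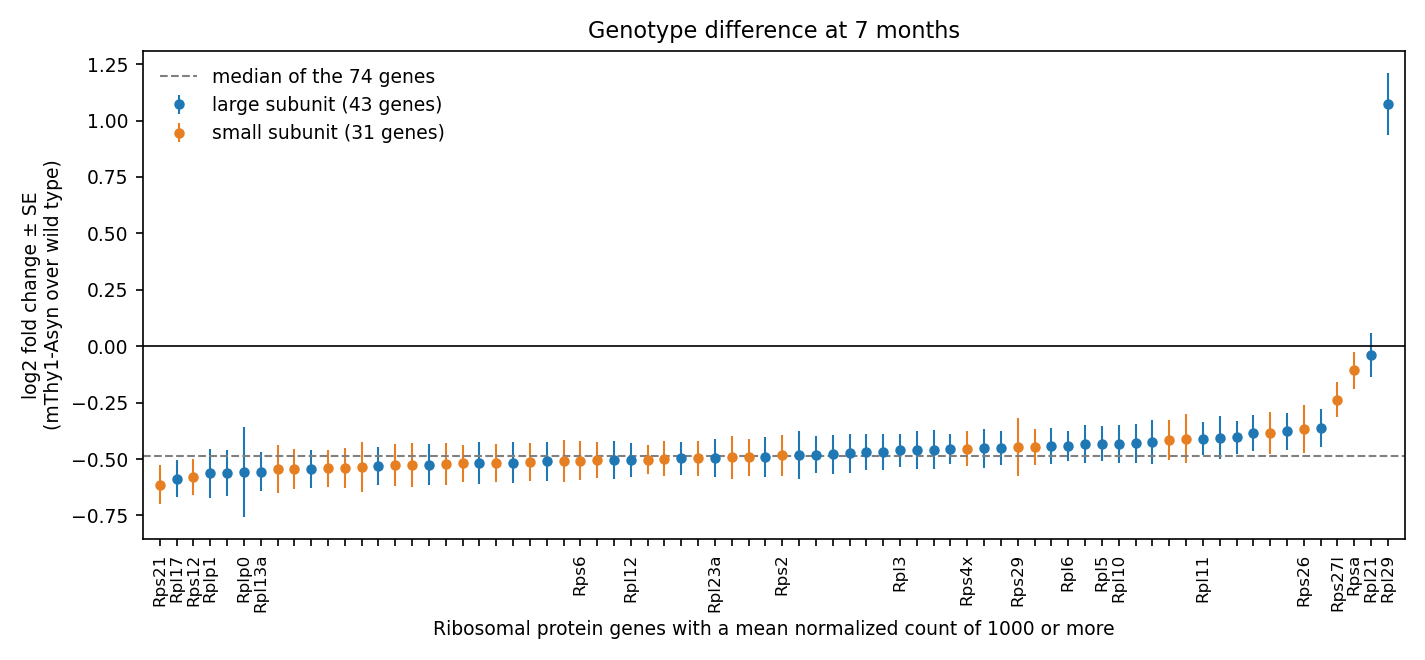
log2 fold change with its SE of the 74 abundant ribosomal protein genes at 7 months, ordered by size, with large subunit genes in blue and small subunit genes in orange and the names of 22 genes on the axis. Nearly all lie close to the median of -0.49 (dashed line). Rps27l, Rpsa, Rpl21 and Rpl29 stand at the right, with Rpl29 at 1.07.

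Rpl29 was the exception. It encodes a small, basic large subunit protein that was also described as a heparin-binding protein, and lies at chr9:106429454-106431568 on the plus strand. Its normalized counts were 11692, 8352, 12910, 11681, 8730 and 8843 in mThy1-Asyn mice and 4515, 4508, 6006 and 4530 in wild type. All 6 mThy1-Asyn mice were above all 4 wild-type mice, which 3.55% of all tested genes also showed. The log2 fold change was 1.07 ± 0.137 (SE, adjusted p 0.0018).

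Some abundant genes did not move past the cutoff at all. Rpl21 (chr5:146832890-146837032, plus strand) had 43001 to 54059 normalized counts in mThy1-Asyn mice and 40633 to 55210 in wild type, with a log2 fold change of -0.04 ± 0.097 (SE, adjusted p 0.86). Rpsa, known also as the precursor of a laminin receptor (chr9:120127689-120132369, plus strand), had 23795 to 28573 against 24639 to 31464 normalized counts. Its log2 fold change was -0.11 ± 0.081 (SE, adjusted p 0.472). In both genes the genotypes overlapped. Rps26 and Rps29 had log2 fold changes of -0.37 and -0.45, near the median of the others, with adjusted p of 0.063 and 0.066.

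To compare single genes with the shift of the others, the values were also scaled to the mean log2 value of the 74 abundant genes in each mouse, an alternative chosen after seeing the data. Under it the median of all tested genes rose to 0.45, 60.5% of all tested genes were called higher and 1.31% lower, so only the order among the ribosomal protein genes is of use. No ribosomal protein gene was called lower, and 5 were called higher than the mean of the list at 7 months. These were Rpl29 by 1.52 on the log2 scale, Rps4l by 0.74, Rpl21 by 0.41, Rpsa by 0.34 and Rpl34 by 2.44. Their adjusted p was 1.0e-05 to 0.0057 in limma's test. With so many genes called, the adjusted p is little stricter than the unadjusted p, so these calls add little to the order. A first version of this scaling, to the mean of all 80 tested members, also chosen after seeing the data, called the same 5 genes higher and Rps21 lower (-0.20, adjusted p 0.043), with 56.6% of all tested genes higher and 1.38% lower. Without the members near 0 in that mean, Rps21 had -0.17 and an adjusted p of 0.085, so that its call rests on which members form the mean.

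The 5 genes whose symbols end in l are copies of another gene. Rps27l, which p53 is known to induce, had 1471 to 1727 normalized counts in mThy1-Asyn mice and 1759 to 1960 in wild type at 7 months. Its genotypes did not overlap, yet the log2 fold change of -0.24 ± 0.077 (SE) had an adjusted p of 0.090. Its parent Rps27 was close to 0, with 3.19 to 30.6 normalized counts at 7 months and a log2 fold change of 0.46 (adjusted p 0.668).

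Rps4l is annotated as a transcribed processed pseudogene with 1 exon. It had 649, 612, 537, 705, 630 and 559 normalized counts in mThy1-Asyn mice and 504, 533, 466.5 and 497 in wild type at 7 months. The mThy1-Asyn mice were all higher, with a log2 fold change of 0.29 ± 0.107 (SE, adjusted p 0.124), while its parent Rps4x fell.

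Rpl3l and Rpl39l, the latter known from testis, had means over the 20 mice of 21.1 and 54.2 normalized counts, and log2 fold changes of -0.35 (adjusted p 0.702) and -0.51 (adjusted p 0.62). Their parents Rpl3 (-0.46, adjusted p 0.0029) and Rpl39 both fell. Rpl10l, another copy known from testis, was at 0. Rpl34 had 10.2 to 40.8 normalized counts in mThy1-Asyn mice and 0 to 12.99 in wild type, with an adjusted p of 0.10, and Rpl30 had 0 to 23.0 against 15.3 to 42.5, with an adjusted p of 0.227. At these levels a difference of the size seen in the abundant genes was not detectable.

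**Figure D3:**
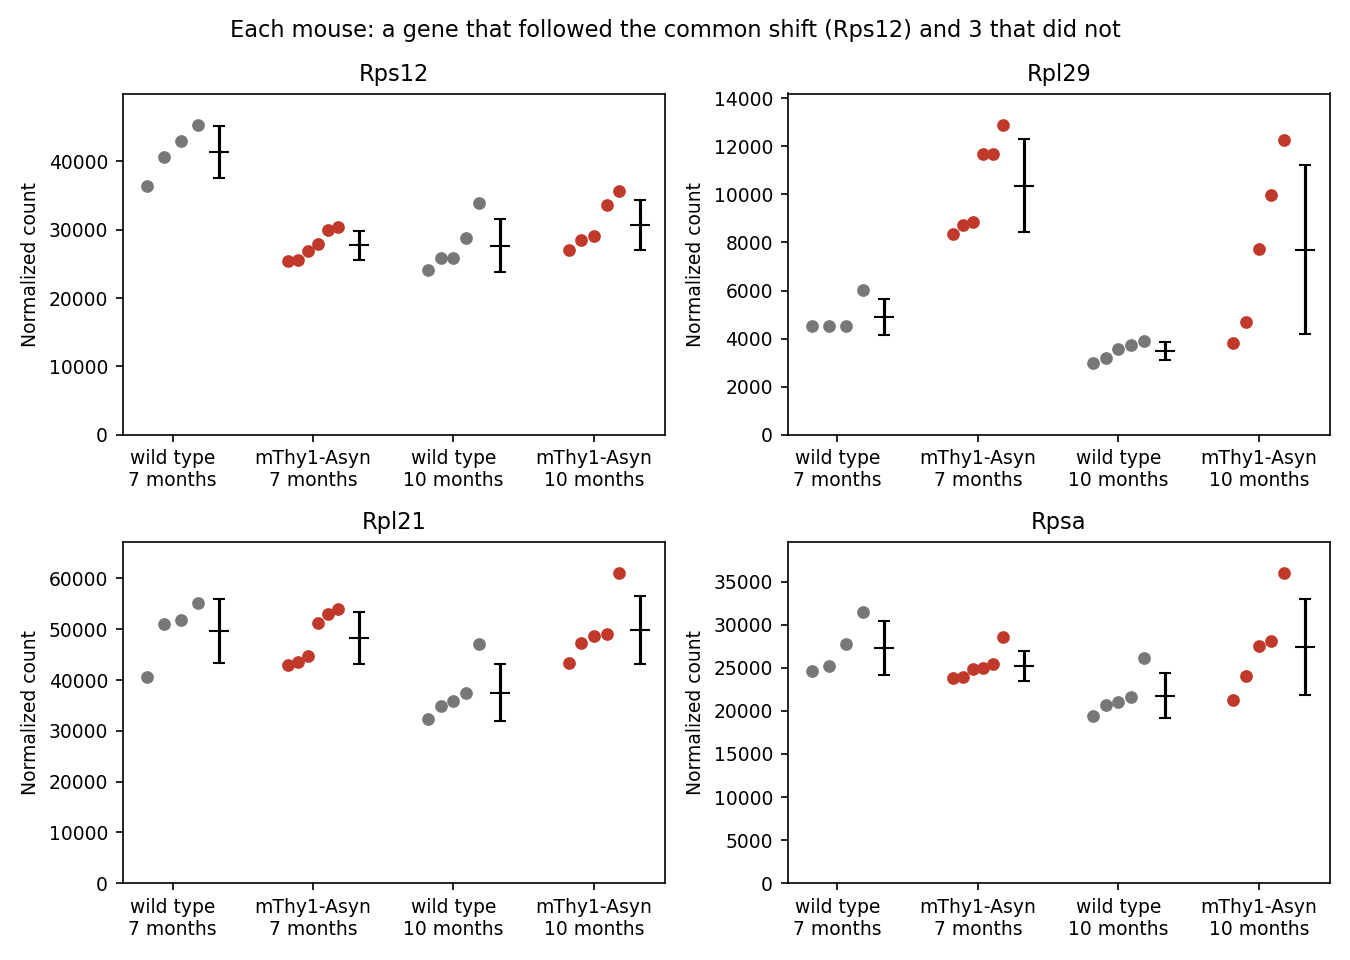
Normalized counts of Rps12, Rpl29, Rpl21 and Rpsa in each mouse, on axes that start at 0, with wild-type mice in grey and mThy1-Asyn mice in red and the mean and SD beside each group. Rps12 was lower in all 7-month mThy1-Asyn mice, Rpl29 higher, and Rpl21 and Rpsa overlapped.

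Other transcripts moved in the 7-month mice as well, and their part in the result was not tested. Among all tested genes 2.7% fell and 2.23% rose at this age. The 10 neuron markers summed to 249 to 491 normalized counts in mThy1-Asyn mice and 743 to 1331 in wild type, and 5 of the 10 fell. The 8 oligodendrocyte markers summed to 7861 to 10222 against 12792 to 18264, and 3 of 8 fell. Of 8 astrocyte markers 3 fell and 1 rose, with sums of 9627 to 12354 against 9048 to 11600. Of 6 endothelial markers 2 fell (3169 to 4611 against 4971 to 5950). None of the 5 tested lymphocyte, 5 neutrophil or 7 monocyte and border macrophage markers passed the cutoff in limma's test. None had an unadjusted p under 0.05 in that test. The lymphocyte sums, over 8 markers, overlapped at 114 to 497 against 351 to 780. So did those of neutrophils (37857 to 383198 against 65277 to 246987) and of monocytes and border macrophages (27550 to 37710 against 30123 to 41989). Of the 10 microglia markers, 1 rose (sums of 1844299 to 2158630 against 1780129 to 1970925). The 4 haemoglobin genes were at 0 in every mouse, and no other marker was at 0 in a whole group. How reads that match several places were counted is not given, so these 0 values need not mean that the RNA was absent. In bulk RNA, a change in the number of cells of a type and a change in RNA per cell cannot be told apart.

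At 10 months the genotypes overlapped in every ribosomal protein gene, where 3.49% of all tested genes had every mThy1-Asyn mouse lower and 3.78% every one higher. The genes took 4.04% to 5.49% of all normalized counts in mThy1-Asyn mice (4.57% ± 0.564, SD, n = 5) and 3.78% to 5.13% in wild type (4.31% ± 0.523, SD, n = 5). Of the 80 genes tested, 66 were higher and 14 lower in mThy1-Asyn mice. Their median was 0.07 on the log2 scale, beside 0.00 for all tested genes. Only Rpl21 passed the cutoff in limma's test, and no gene was called lower. Over all genes tested 3.88% were called higher and 3.79% lower, so that 1 of 80 is below that background. Of the marker lists, 3 of 7 monocyte and border macrophage markers fell at 10 months (sums of 21732 to 29342 normalized counts against 30336 to 43814 in wild type), as did 2 of 4 tested lymphocyte markers (92.5 to 262 against 293 to 633, over 8 markers) and 1 of 5 neutrophil markers (62335 to 167100 against 135218 to 334772). In the other direction 3 of 10 microglia markers rose (1763099 to 1976730 against 1602414 to 1848175), as did 1 of 8 astrocyte markers (10152 to 11253 against 9044 to 10898). No neuron, oligodendrocyte or endothelial marker passed the cutoff in limma's test, and 1 neuron marker had an unadjusted p under 0.05. Their part in the result was not tested. Without mThy1-Asyn replicate 4 the median was 0.01.

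Rpl21 had 48688, 61064, 47198, 49024 and 43278 normalized counts in mThy1-Asyn mice at 10 months and 34801, 32312, 35913, 37476 and 47121 in wild type. A single wild-type mouse reached the mThy1-Asyn range. The log2 fold change was 0.41 ± 0.105 (SE, adjusted p 0.031), and the call was lost without any of 6 of the 10 mice (mThy1-Asyn replicates 1, 2 and 3 and wild-type replicates 1, 2 and 3), with adjusted p of 0.055 to 0.079. Scaled to the abundant ribosomal protein genes it was 0.33, with an adjusted p of 0.202. Under that scaling no member was called at 10 months in limma's test, where 0.602% of all tested genes were called higher and 1.63% lower, and none was with all tested members as reference (0.594% higher and 1.63% lower).

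Rpl29 had 7717, 4706, 3836, 9984 and 12251 normalized counts in the 10-month mThy1-Asyn mice and 3204, 3564, 3906, 2985 and 3718 in wild type. Of the mThy1-Asyn mice 4 were above all wild-type mice and replicate 3 lay among them. The log2 fold change was 1.02 ± 0.307 (SE), close to that at 7 months, with an adjusted p of 0.080. Without replicate 3 it was 1.24, with an adjusted p of 0.030 in limma's test, and leaving out other single mice gave up to 0.160. The other alternatives ran from 0.0034, in DESeq2 on the recovered reads, to 0.141.

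Rpsa was the next highest abundant gene, with a log2 fold change of 0.32 ± 0.124 (SE, adjusted p 0.14). Rps2, a protein near the mRNA entry, had the lowest of the abundant genes, -0.24 ± 0.084 (SE, adjusted p 0.103). It had 13115 to 16953 normalized counts in mThy1-Asyn mice and 15752 to 20079 in wild type. Without mThy1-Asyn replicate 4 its adjusted p was 0.040 at a log2 fold change of -0.29, and leaving out other single mice gave up to 0.214. The other alternatives gave Rps2 an adjusted p of 0.074 to 0.192. Rpl9 had -0.07. The near-silent Rpl3l and Rpl30 had -0.54 and -0.47, with adjusted p of 0.527 and 0.711.

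The 10-month mice differed more within each group, and single mice were high or low in nearly all ribosomal protein genes at once. Among the 74 abundant genes, mThy1-Asyn replicate 4 had the highest value of its group in 69 and wild-type replicate 5 in 72. mThy1-Asyn replicate 1 had the lowest value in 55 and wild-type replicate 1 in 48. The median coefficient of variation of these genes was 13.7% in both groups, where tested genes with a mean of at least 1000 had 8.47% and 8.87%. At 7 months it was 7.65% in mThy1-Asyn and 11.3% in wild-type mice, beside 9.02% and 8.85%. There, wild-type replicate 3 had the highest value of its group in 63 genes and replicate 4 the lowest in 51.

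**Figure D4:**
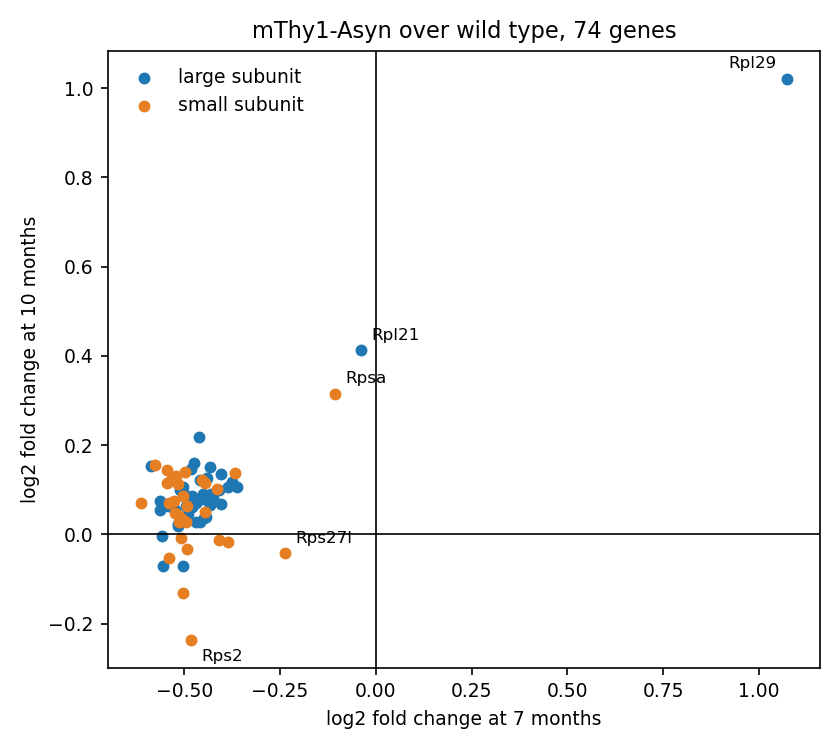
log2 fold change (mThy1-Asyn over wild type) at 7 months on the horizontal axis against that at 10 months on the vertical axis, for the 74 abundant ribosomal protein genes. The quartiles of the 74 genes are -0.52 and -0.44 at 7 months and 0.04 and 0.12 at 10 months, and Rpl29 lies at 1.07 and 1.02.

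The genotype effect therefore differed between the ages, which the interaction (the log2 effect at 10 months minus that at 7 months, limma over all 20 mice) tested gene by gene. Of 80 genes tested, 56 passed the cutoff with a positive interaction, 37 of 47 in the large and 19 of 33 in the small subunit. Over all 14030 genes 3.87% were called positive and 2.73% negative. No ribosomal protein gene was called negative by limma, edgeR or DESeq2. In limma's test 70 of the 80 had an unadjusted p under 0.05, as did 3121 of all 14030 genes. The median interaction was 0.54, beside 0.00 for all genes. Without wild-type replicate 3 at 7 months 33 genes were called.

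The smallest p-values were those of Rps12 (0.73 ± 0.132, SE, adjusted p 0.0025), Rpl3 (0.68 ± 0.122, SE, adjusted p 0.0025) and Rpl6 (0.57 ± 0.106, SE, adjusted p 0.0033). Rpl3, which lies close to the site of peptide bond formation, had 35505 to 43458 normalized counts in mThy1-Asyn mice against 50250 to 58571 in wild type at 7 months. At 10 months it had 39503 to 52492 against 34093 to 45772, an overlap with a log2 fold change of 0.22. Rpl21 had an interaction of 0.45 (adjusted p 0.072) and Rpsa of 0.42 (adjusted p 0.10). Rpl29 had -0.05 ± 0.356 (SE, adjusted p 0.949), a wide error beside that of the other genes. Scaled to the abundant ribosomal protein genes, only Rps4l passed the cutoff in the interaction, at -0.67 ± 0.179 (SE, adjusted p 0.0053), and under that scaling 46.7% of all tested genes were called negative and 1.18% positive. With all tested members as reference it was again the one gene called, at -0.64 (adjusted p 0.0099), with 41.6% of all tested genes negative and 1.21% positive. Where shares are this large, the adjusted p of Rps4l is little stricter than its unadjusted p.

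Genes with and without these start sequences had close medians at 7 months. In the 43 abundant genes that had a pyrimidine run, like those printed for Rps12 and Rps6, the median was -0.48 on the log2 scale, and in 12 genes with an entry but no run it was -0.47. With CCGGAA it was -0.47 in 30 genes and without it -0.50 in 25. With a run 41 of 43 genes fell and without it 10 of 12, where 2.7% of all tested genes fell. No difference between these sets was tested. The run was not tied to a measured start, so the sets need not divide TOP from other mRNAs.

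Genes next to the ribosomal proteins in function were read from lists of known members. Where 2.7% of all tested genes fell at 7 months, 4 of 6 ribosomal protein genes with symbols outside the rule did. Among them were Fau (-0.58, adjusted p 0.0018), made fused to a ubiquitin-like protein, Rack1, listed as Gnb2l1 (-0.44, adjusted p 0.012), a scaffold on the small subunit, and Rpl36al (-0.35, adjusted p 0.047). Rpl22l1 and Rpl7l1 had -0.35 (adjusted p 0.206) and 0.02 (adjusted p 0.917). At 10 months none of the 6 had an unadjusted p under 0.05.

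A further list held 18 genes whose mRNAs are known to carry a TOP motif, 12 of them translation factors and the others Nap1l1, Npm1, Hnrnpa1, Tpt1, Naca and Btf3. Among all tested genes 2.7% fell and 2.23% rose at 7 months. Of the 18 genes 12 fell and none rose, with a median log2 fold change of -0.33. Among them were Nap1l1 (-0.57), a histone chaperone, Eef1a1 (-0.41), which delivers aminoacyl-tRNA, Eef1b2 (-0.48), which exchanges its guanine nucleotide, Eif3h (-0.45), a subunit of an initiation factor, and Eef2 (-0.39), which moves the ribosome along the mRNA. The adjusted p of these 5 genes lay between 0.0029 and 0.0037. At 10 months Eif4b (0.25) and Pabpc1 (0.23) rose and Eif4a2 (-0.30) fell, where 3.88% of all tested genes rose and 3.79% fell. A positive interaction past the cutoff was found in 10 of the 18, with Eif4b at 0.57 and Eef2 at 0.55. Over all genes in the interaction 3.87% were called positive and 2.73% negative.

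The regulators of these mRNAs and the machinery that assembles ribosomes had medians near 0. None of 22 mTOR and TOP mRNA regulators passed the cutoff at 7 months in limma's test, and their median was 0.00. In 7 the unadjusted p was under 0.05, as it was in 2962 of all 13887 tested genes. In the interaction 1 passed, Lamtor1 at 0.48 (adjusted p 0.026), part of the lysosomal anchor of mTOR, where 3.87% of all genes were called positive. Of 44 genes of RNA polymerase I and ribosome assembly, Polr1a (-0.38, adjusted p 0.015), the largest subunit of the polymerase, fell. Myc (0.89, adjusted p 0.0018) and Gnl3 (0.37, adjusted p 0.038) rose, and the median was 0.03. Among all tested genes 2.7% fell and 2.23% rose, so calls this few do not set the list apart. At 10 months Nmd3 (0.31), the export adaptor of the large subunit, rose and Max (-0.23), the partner of Myc, fell. Among all tested genes 3.88% rose and 3.79% fell at that age. None of 6 snoRNA host genes passed at either age. An unadjusted p under 0.05 was found in 2 at 7 months and 1 at 10 months, where 3209 of all 13627 tested genes had one. Snhg8 had an interaction of 0.76 (adjusted p 0.047).

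Mitochondrial ribosomal proteins serve the separate ribosome of mitochondria. Of their 77 genes, 52 were lower and 25 higher at 7 months. Past the cutoff 2 fell, Mrpl23 (-0.41, adjusted p 0.021) and Mrpl30 (-0.35, adjusted p 0.025), and none rose. Among all tested genes 2.7% fell and 2.23% rose. The median log2 fold change was -0.06 with quartiles of -0.14 and 0.01. Differences between the lists were not tested. Of 74 oxidative phosphorylation genes tested 70 were lower and 4 higher at 7 months, and 37 had an unadjusted p under 0.05. Past the cutoff 8 fell, among them Cox7a2l (-0.50, adjusted p 0.0025) and Atp5h (-0.43, adjusted p 0.0096). Their list had a median of -0.22 and quartiles of -0.31 and -0.11. Of 5 tested ribosomal protein pseudogenes none passed the cutoff in limma's test, 4 had an unadjusted p under 0.05, and the median was -0.63.

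**Figure D5:**
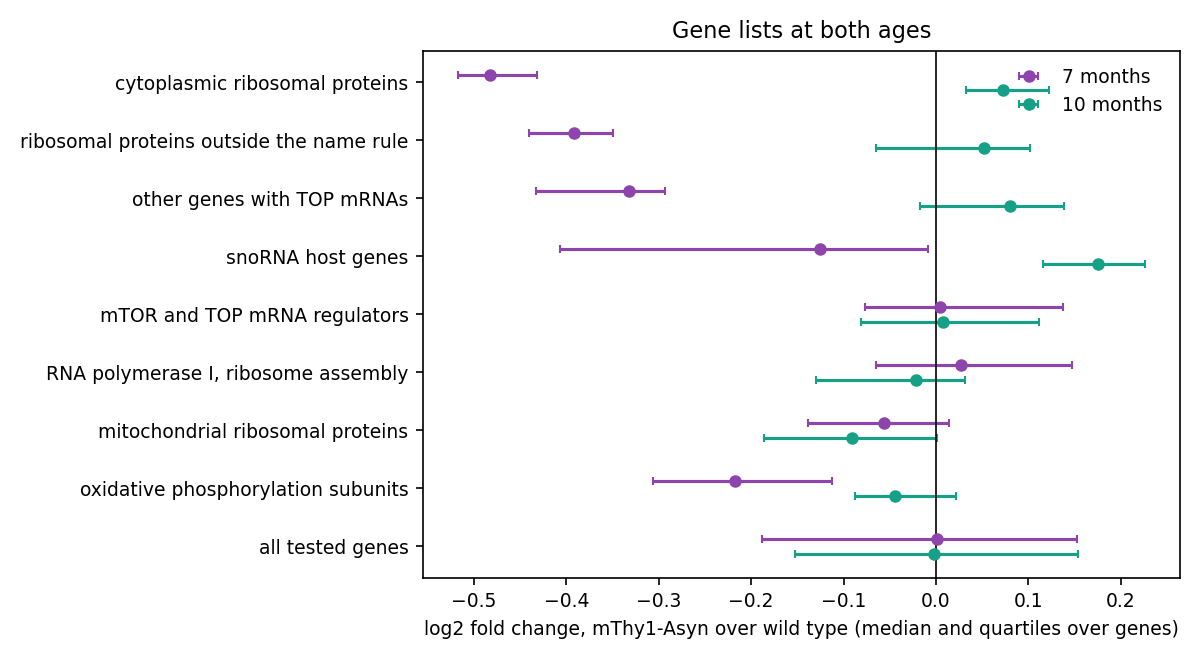
Median log2 fold change (mThy1-Asyn over wild type) with its quartiles over genes for the ribosomal protein genes and related lists, at 7 months in purple and 10 months in green. At 7 months the ribosomal protein genes lie at -0.48 and the other genes with TOP mRNAs at -0.33, and mTOR regulators, ribosome assembly and mitochondrial ribosomal proteins lie between -0.06 and 0.03. Ribosomal proteins outside the name rule lie at -0.39, oxidative phosphorylation subunits at -0.22 and snoRNA host genes at -0.13.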

How the data were processed

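The authors trimmed paired-end reads with Trim Galore 0.6.7, mapped them to mm10 with HISAT2 2.2.1, counted them per gene with featureCounts and normalized them with DESeq2 1.44.0. The deposited signal values are gene counts divided by a size factor per mouse, found within each age. Every value was a whole multiple, within 0.02, of a step equal to 1 over that factor, so reads were recovered. In mThy1-Asyn replicate 5 at 10 months the step of 1.003 is too close to 1 for such a test. Annotation release, strand and multi-mapping settings are not given in the sources used here.

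Testing was limited to genes that reached 10 in 4 mice (7 months) or 5 mice (10 months), and was done on log2(value + 1) with limma 3.58.1 (trend, robust, R 4.3.3) and Benjamini-Hochberg adjustment over all tested genes with a cutoff of 0.05: 13887, 13627 and, for the interaction, 14030 genes. A fold change on this scale understates that of low genes. "Fell" and "rose" mean past the cutoff. Each sample is 1 mouse. The fits were tested on simulated data. Alternatives were edgeR 4.0.16 and DESeq2 1.42.0 on recovered reads, other pseudocounts, scalings and filters, a replicate block and leaving out each mouse.

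The members and lists were chosen with earlier results of these data known. Genes named were, at each age, the 15 called members with the smallest p and the 5 strongest against the median, the 3 smallest interaction p, genes ending in l and their parents, untested members, the extremes per length and a core list (Rplp0, Rplp1, Rplp2, Rpsa, Rps6, Rpl5, Rpl11), with up to 5 called genes of other lists. Values of some genes that this rule names are not reported here. Rps26 and Rps29 were named after their values were seen. Positions are from GENCODE M21 (GRCm38) and promoter sequences from RefSeq (GRCm38.p6).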

Additional observations from a re-analysis of the deposited data

Results flagged for a closer look

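In 8 of 148 groups of values 1 mouse lay far from the others of its group by Dixon's 95% criterion, where chance gives about 1 in 20. In wild-type mice at 10 months these were replicate 5, highest in Rpl12 (34468 normalized counts), Rps23 (50955), Rpl39 (30978) and Rpl5 (80707), and replicate 2, highest in Rpl30 (53.5). In mThy1-Asyn mice at 7 months replicate 6 was highest in Rplp1 (27487) and replicate 3 in Rpsa (28573). In wild-type mice at 7 months replicate 3 was highest in Rpl29 (6006).

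The genotype effect differed between the ages in 56 members by the interaction test of limma. Among the named genes the interaction (log2) was 0.73 for Rps12, 0.74 for Rpl17, 0.68 for Rps21, 0.54 for Rpl24, 0.58 for Rpl32, 0.61 for Rpl12, 0.61 for Rps23, 0.57 for Rpl6, 0.61 for Rpl39, 0.52 for Rps3, 0.56 for Rps27a, 0.68 for Rpl3, 0.50 for Rpl10, 0.58 for Rps4x, 0.56 for Rpl23a, 0.64 for Rplp1, 0.54 for Rplp2, 0.54 for Rps6, 0.58 for Rpl5 and 0.51 for Rpl11.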

How the results depend on the processing

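Of the 68 members called at 7 months, 56 were called under each of 19 alternatives, and of the 56 in the interaction 33 were called under each of 29. Leaving out 1 mouse at a time gave 56 to 68 members called lower and 1 called higher at 7 months, 0 to 1 called either way at 10 months and 33 to 66 positive in the interaction. The counts over all genes then ran from 162 to 458 lower and 120 to 400 higher at 7 months, 243 to 657 and 254 to 589 at 10 months, and 241 to 473 negative and 373 to 616 positive in the interaction. At 7 months the lowest counts came without wild-type replicate 1.

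DESeq2 called 594 genes lower and 564 higher at 7 months, 859 and 835 at 10 months (2 members higher), and 586 negative in the interaction. Same-numbered mice did not deviate together (r of -0.13 to 0.10, against -0.22 to 0.18 for mice of different numbers). A correlation near 0 cannot show that the numbers do not mark pairs, and the main fits used no pairing. The replicate block gave 249 genes lower and 165 higher at 7 months with 66 members lower, 0 members at 10 months, and 194 negative and 287 positive in the interaction with 42 members. Quantile normalization called 2 members higher at 7 months, and Rpl21 was 0.049.

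The 2 scalings to the ribosomal protein genes, added after seeing the data, take the common shift out by construction. With all tested members as reference, 191 genes were called lower and 7863 higher at 7 months (1 and 5 members), 222 and 81 at 10 months (0 members higher), and 5840 negative and 170 positive in the interaction (1 and 0 members). With the abundant members these were 182 and 8403 (0 and 5), 222 and 82 (0), and 6548 and 165 (1 and 0). Median log2 fold changes of all, large and small subunit members at 7 months became -0.070, -0.057 and -0.090, or -0.034, -0.021 and -0.054, and in the interaction 0.044, 0.044 and 0.045, or 0.0063, 0.0061 and 0.0066. Signs turned at 7 months for Rpl21 (0.37 and 0.41), Rpl3l (0.043 and 0.077), Rps27l (0.18 and 0.21), Rpsa (0.31 and 0.34) and Rpl11 (0.0034 and 0.039), with the abundant members alone for Rpl6 (0.0062), Rpl10 (0.016) and Rpl5 (0.016), and in the interaction for Rpl21 (-0.046 and -0.084).

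Signs of uncalled genes also turned when single mice were left out. At 7 months Rps27 ran from -0.084 to 0.75, Rpl21 from -0.13 to 0.017 and Rpl3l from -0.55 to 0.019, at 10 months Rpl30 from -0.83 to 0.0076 and Rpl9 from -0.15 to 0.039, and in the interaction Rpl29 from -0.25 to 0.16, with 0.065 in edgeR and 0.069 in DESeq2. Without the 50 highest genes in the denominator the mean shares were 4.80% and 6.62% at 7 months and 5.82% and 5.47% at 10 months, mThy1-Asyn first. Leaving out 1 mouse gave 3.73% to 3.82%, 5.06% to 5.33%, 4.34% to 4.71% and 4.10% to 4.44%. The cause of these differences was not tested.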
